A study of Mus musculus with 6 samples.

Results

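The genes described here encode cell-surface receptors for extracellular nucleotides and adenosine, together with Entpd1, an ectonucleotidase that breaks down ATP and ADP. They were chosen by name from the table of gene counts, and all 10 of 10 were found among its 17890 genes. They comprise the ATP-gated channels P2rx1, P2rx4 and P2rx7, the G protein-coupled nucleotide receptors P2ry1, P2ry2 and P2ry14, the adenosine receptors Adora2a, Adora2b and Adora3, and Entpd1. Messenger RNA was sequenced from mast cells of mouse lymph nodes, 3 libraries from metastatic nodes (mLN) and 3 from uninvolved nodes (uLN). The sources used here give neither the strain, age and tumour nor how the mast cells were isolated. They also do not say whether the libraries came from separate animals, so p-values measure only how far these libraries scatter, and that scatter may be technical.

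ATP and other nucleotides leave cells that are stimulated, stressed or dying, and act on nearby cells through P2X channels and P2Y receptors. Surface enzymes then strip the phosphates: Entpd1 (CD39) takes ATP and ADP to AMP, and Nt5e (CD73) takes AMP to adenosine, which acts on its own receptors. Mast cells are known for responding to both kinds of ligand, ATP through P2X channels that let calcium in, and adenosine through receptors that raise or lower cyclic AMP, with Adora3 known in mouse mast cells for promoting degranulation.

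Library totals ran from 17643916 to 17799420 estimated counts. Values are given as CPM (counts scaled to library size, with TMM factors for composition). Fold changes are mLN over uLN from edgeR's quasi-likelihood test, called at a Benjamini-Hochberg adjusted p under 0.05 over all 12706 tested genes. The 12 listed mast cell markers summed to 39740 to 42427 CPM in mLN libraries and 41561 to 43380 CPM in uLN libraries, with 3 of them called higher and 7 lower. These similar sums cover opposed changes. Mcpt4, Tpsb2 and Cma1 rose 4.03-fold, 2.06-fold and 2.01-fold, while among the 7 lower Kit fell 2.47-fold and Mrgprb2 1.81-fold. Of the 11 macrophage markers 10 were tested, and Adgre1 and Cd68 were called higher and 7 others lower, with sums over the list of 159 to 178 CPM in mLN and 79.8 to 108 CPM in uLN. Keratinocyte and carcinoma markers summed to 158, 16.2 and 35.1 CPM in mLN replicates 1, 2 and 3, against 8.04 to 17.3 CPM in uLN, and fibroblast markers likewise peaked in mLN replicate 1. The neutrophil markers summed to 10.3 to 10.9 CPM in mLN and 11.3 to 15.6 CPM in uLN, and those of T and NK cells to at most 3.89 CPM in mLN and 4.82 CPM in uLN. Basophil markers summed to 494 to 523 CPM in mLN and 319 to 332 CPM in uLN, with 2 of 3 called higher. Most of that sum was Cd200r3, at 486 CPM in mLN and 318 CPM in uLN. The defining basophil gene Mcpt8 had 26, 12 and 22 reads in mLN and 20, 18 and 18 reads in uLN and was not called. The part of basophil RNA in the results was not tested. The 4 eosinophil markers summed to 32.3 to 42.3 CPM in mLN and 14.6 to 17.1 CPM in uLN. Of these, Siglecf (4.56-fold) and Ccr3 (2.30-fold) were called higher, while the granule genes Epx and Prg2 had 0 reads in every uLN library and at most 1 read in any mLN library. The part of eosinophil RNA in the results was not tested. Replicate 3 stood apart within mLN, with a median chi-square per gene of 2.58 and 2.48 against mLN replicates 1 and 2, which differed from each other by 0.736.

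Of the 10 genes, 6 were higher in mLN, 3 were lower and 1 was not called. Calls were common in this comparison: 67.4% of all tested genes were called, 33.2% as higher and 34.2% as lower. Libraries of mLN and uLN did not overlap for 9 of the 10 genes, where 72.9% of all tested genes show this. At a fold of at least 1.5, 4 of the 10 were called higher and 2 lower, where 32.5% of all tested genes were called, 17.1% as higher and 15.3% as lower. The median log2 fold change was 0.52 over the 10 genes and -0.01 over all tested genes. In these bulk libraries, fewer cells that express a gene and less RNA of it per cell cannot be told apart. With a biological coefficient of variation of 0.2 set for every gene, well above the 0.0649 estimated from these libraries, P2rx1, P2rx7 and P2ry2 were not called, which left 4 members higher and 2 lower. That setting was chosen after the data were seen.

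**Figure D1:**
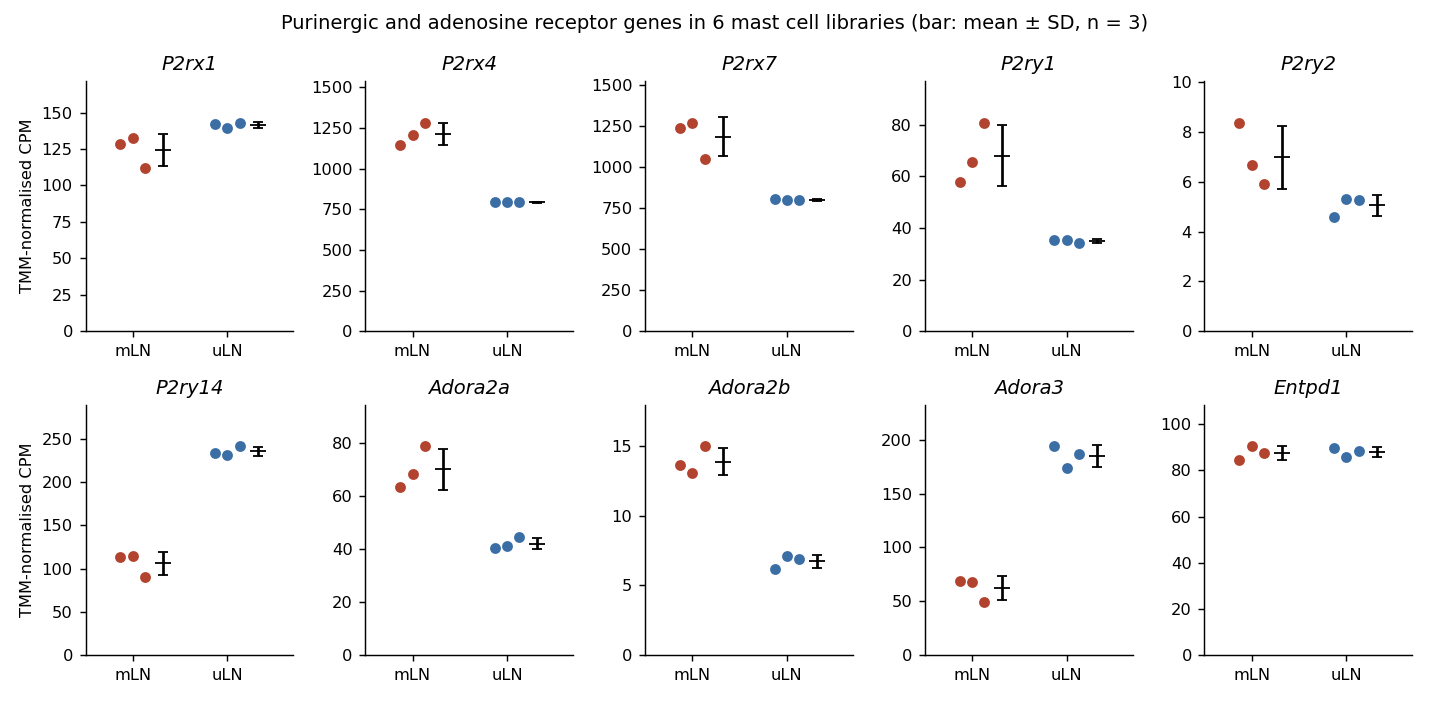
TMM-normalised CPM (vertical axis, from 0, with its own range in each panel) of the 10 genes in mLN (red) and uLN (blue) libraries, 1 point per library, with mean ± SD. Groups are apart in each panel except that of Entpd1, and the mLN points are more spread than the uLN points in most panels.

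The P2X channels P2rx4 and P2rx7 were the most abundant of the receptors per transcript length, and both rose in mLN. P2rx4, a calcium-permeable ATP-gated channel, had 1148, 1208 and 1282 CPM in mLN replicates 1, 2 and 3, against 793, 796 and 792 CPM in uLN. Each mLN library was above each uLN library, and the uLN libraries were almost equal. The means were 1213 ± 67.1 CPM in mLN and 794 ± 2.21 CPM in uLN (SD, n = 3 each), a 1.53-fold rise (log2 0.61 ± 0.05 SE, edgeR adjusted p = 1.31e-06). The uLN spread, 0.278% of the mean, was below the 0.848% that read counting alone would give at this depth. P2rx7, the low-affinity channel whose prolonged opening lets potassium out of the cell and can switch on the NLRP3 inflammasome, had 1236, 1269 and 1049 CPM in mLN and 807, 796 and 800.2 CPM in uLN. Replicate 3 was the lowest of the mLN libraries and still above all uLN libraries. The fold was 1.48 (log2 0.56 ± 0.06 SE, edgeR adjusted p = 2.47e-05). The summed macrophage markers were higher in mLN as well, as given above. Most of that sum was Cd68, at 90.2 CPM in mLN and 24.9 CPM in uLN, and Adgre1, at 61.1 CPM in mLN and 26.8 CPM in uLN. The 7 other markers with a call were lower in mLN, among them Csf1r, at 4.24 CPM in mLN and 8.37 CPM in uLN. The defining macrophage gene C1qa had 2, 8 and 10 reads in mLN and 6, 11 and 3 reads in uLN. The part of macrophage RNA in either channel's rise was not tested.

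Both genes lie on the plus strand of chromosome 5 in GRCm38, P2rx7 from 122643927 to 122692336 and P2rx4 from 122707518 to 122729739, with 15181 bases between them. The mean folds of these neighbours were similar, but mLN replicate 3 was the highest mLN library for P2rx4 and the lowest for P2rx7. The 250 bases before a RefSeq start of each on GRCm38.p6 are shown 5′ to 3′, of which the P2rx4 start lies just inside the span given. Capitals mark matches, on either strand, to the cyclic AMP response core TGACG, the hypoxia element (ACGTG, also GCGTG) and the GATA site, spelled AGATAA or with T as first letter, G as last letter, or both.
P2rx7 (chr5:122643677-122643926, plus strand): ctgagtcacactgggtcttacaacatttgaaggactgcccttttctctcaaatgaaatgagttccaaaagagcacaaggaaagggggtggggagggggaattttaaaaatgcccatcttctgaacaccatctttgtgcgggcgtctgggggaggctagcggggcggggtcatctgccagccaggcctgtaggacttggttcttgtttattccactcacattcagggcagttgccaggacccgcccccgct
P2rx4 (chr5:122707294-122707543, plus strand): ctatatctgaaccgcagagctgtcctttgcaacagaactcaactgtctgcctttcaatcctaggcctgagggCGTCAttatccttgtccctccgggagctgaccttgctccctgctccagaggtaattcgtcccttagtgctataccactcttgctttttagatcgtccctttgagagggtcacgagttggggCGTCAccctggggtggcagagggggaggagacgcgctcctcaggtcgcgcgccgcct
The P2rx4 window held TGACG on the opposite strand, read here as CGTCA, 178 and 57 bases before the start, and 17.8% of 32851 such promoter windows hold this motif at least once. The P2rx7 window held none of these letters, and had 4 matches to the E-box CANNTG (not in capitals), which 66.2% of windows hold. A match is a description of letters and does not mark a bound site. P2rx4 also overlaps Camkk2, which lies on the opposite strand and rose 1.52-fold. All 6 P2rx4 values and 3 of 6 P2rx7 values were not whole numbers, and the sources used here do not say whether counting used strand, so reads of P2rx4 and Camkk2 may be mixed where the genes overlap.

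P2rx1, a fast-desensitising ATP-gated channel best known from platelets and smooth muscle, was the member of this class that did not rise. It had 128, 133 and 112 CPM in mLN and 142, 139 and 143 CPM in uLN, so mLN was lower in every library and replicate 3 lowest. The log2 fold change was -0.19 ± 0.06 (SE, edgeR adjusted p = 0.0215), a 1.14-fold fall. It was not called without any 1 of uLN replicates 1, 2 and 3 (edgeR adjusted p = 0.0622, 0.0556 and 0.0645) or with library totals alone as scaling (0.0629). The 7 platelet and megakaryocyte markers summed to 959 to 1047 CPM in mLN and 1662 to 1693 CPM in uLN, with 3 called higher and 1 lower of 4 tested. Most of that sum was Itga2b, the 1 called lower, at 884 CPM in mLN and 1580 CPM in uLN. Pf4, Gp9 and Itgb3 were the 3 called higher. Ppbp, a defining platelet gene, had 3, 0 and 2 reads in mLN and 0 in each uLN library. The part of such RNA in the P2rx1 difference was not tested. P2rx1 spans 72999056 to 73015200 on chromosome 11.

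The 3 P2Y receptors moved in both directions. P2ry1, an ADP receptor that couples to Gq and calcium release, had 57.7, 65.6 and 80.8 CPM in mLN and 35.3, 35.4 and 34.1 CPM in uLN. Replicate 3 was highest in mLN, and the lowest mLN library was well above the highest uLN library. The fold was 1.95 (log2 0.96 ± 0.11 SE, edgeR adjusted p = 1.85e-05). P2ry2, which responds to ATP and UTP, was the scarcest of the 10 genes per transcript length, with 153, 120 and 103 reads in mLN and 80, 94 and 92 reads in uLN. These came to 8.38, 6.67 and 5.91 CPM in mLN and 4.59, 5.31 and 5.29 CPM in uLN, so the groups were apart by little. Its 1.38-fold rise (log2 0.47 ± 0.16 SE, edgeR adjusted p = 0.0247) was not called without mLN replicate 1, where it peaked (1.24-fold, adjusted p = 0.103). It was also not called without any 1 of uLN replicates 1, 2 and 3 (edgeR adjusted p = 0.0951, 0.0507 and 0.0594). Keratinocyte and fibroblast markers peaked in that mLN library too, and their part in the P2ry2 value was not tested.

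P2ry14, the receptor for UDP-glucose and related UDP-sugars, fell. It had 113, 115 and 90.7 CPM in mLN, against 234, 231 and 242 CPM in uLN. Every mLN library held less than the lowest uLN library by a wide margin. The means were 106 ± 13.5 CPM in mLN and 236 ± 5.22 CPM in uLN (SD, n = 3 each), a 2.22-fold fall (log2 -1.15 ± 0.08 SE, edgeR adjusted p = 6.33e-07). P2ry14 spans 59114623 to 59153492 on the minus strand of chromosome 3, inside the span of Med12l on the plus strand. Med12l rose 3.05-fold, opposite in direction to P2ry14, and reads from the shared stretch cannot be told apart without strand. All P2ry14 values were whole numbers, unlike those of P2rx4. P2ry1 lies elsewhere on chromosome 3, from 61002785 to 61008982, and P2ry2 on chromosome 7 from 100996568 to 101012053.

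The adenosine receptors showed the widest split, with both Gs-coupled receptors higher and the Gi-coupled receptor lower in mLN. Adora2a, which raises cyclic AMP and restrains many immune cells, had 63.4, 68.1 and 78.7 CPM in mLN and 40.4, 41.1 and 44.4 CPM in uLN. Its fold was 1.67 (log2 0.74 ± 0.08 SE, edgeR adjusted p = 1.60e-05). Adora2b, the low-affinity receptor that also raises cyclic AMP, had 13.6, 13.1 and 15.0 CPM in mLN and 6.19, 7.11 and 6.89 CPM in uLN. It rose 2.06-fold (log2 1.04 ± 0.10 SE, edgeR adjusted p = 8.92e-06). All mLN libraries were above all uLN libraries for both genes. Adora2a spans 75316877 to 75334792 on chromosome 10 and Adora2b 62248984 to 62266452 on chromosome 11.

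Adora3, which lowers cyclic AMP, showed the largest change of the 10 genes. It had 69.1, 68.2 and 49.4 CPM in mLN, against 194, 173 and 187 CPM in uLN. The highest mLN library was far below the lowest uLN library. The means were 62.3 ± 11.1 CPM in mLN and 185 ± 10.4 CPM in uLN (SD, n = 3 each), a 2.97-fold fall (log2 -1.57 ± 0.11 SE, edgeR adjusted p = 6.08e-07). Its change was larger in size than that of 93.3% of tested genes. Adora3 spans 105904421 to 105908928 on the plus strand of chromosome 3 and lies within Tmigd3, a gene of the same strand that shares part of the locus. None of its 6 values was a whole number, as happens where a count is shared out between genes or transcripts. Tmigd3 was scarce, with 4.16, 5.45 and 4.42 CPM in mLN and 6.42, 6.60 and 7.41 CPM in uLN, and fell as well (1.46-fold, edgeR adjusted p = 0.00865).

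As Adora3 and P2ry14 were the receptors with the steepest falls, the 250 bases before their annotated starts are shown from the same RefSeq table, with the same motifs in capitals.
Adora3 (chr3:105904171-105904420, plus strand): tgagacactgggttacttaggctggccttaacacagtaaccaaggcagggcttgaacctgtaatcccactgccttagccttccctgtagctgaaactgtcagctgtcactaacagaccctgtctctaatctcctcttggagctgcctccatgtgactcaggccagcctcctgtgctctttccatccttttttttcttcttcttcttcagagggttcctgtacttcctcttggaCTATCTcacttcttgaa
P2ry14 (chr3:59153493-59153742, minus strand): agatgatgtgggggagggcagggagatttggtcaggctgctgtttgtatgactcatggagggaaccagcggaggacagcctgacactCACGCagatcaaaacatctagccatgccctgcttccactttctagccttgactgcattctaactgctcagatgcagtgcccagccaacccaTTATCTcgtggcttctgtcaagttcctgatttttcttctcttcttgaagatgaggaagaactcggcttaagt
Each window held 1 GATA site on the opposite strand, CTATCT 17 bases before the Adora3 start and TTATCT 72 bases before the P2ry14 start. A GATA site is held by 26.5% of all windows. P2ry14 also had the hypoxia letters GCGTG on the opposite strand, CACGC, 163 bases before its start, a match found in 38.6% of windows. RefSeq lists 4 starts for P2ry14, and the outermost is shown. It lists 2 each for P2rx7, P2ry2 and Entpd1, and for every gene only the outermost start was searched. Of the other members, P2rx1 had 2 GATA matches, while P2ry1, P2ry2, Adora2b and Entpd1 had none, and Adora2a was not searched. The hypoxia letters were also found before P2ry1 (2 matches) and before P2ry2, Adora2b and Entpd1 (1 match each), and not before P2rx1.

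Entpd1 had 84.6, 90.4 and 87.5 CPM in mLN and 89.8, 85.7 and 88.3 CPM in uLN, with overlapping groups. The log2 fold change was -0.01, with a 95% interval from -0.11 to 0.10 (edgeR adjusted p = 0.902). Entpd1 spans 40612366 to 40741602 on chromosome 19.

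**Figure D2:**
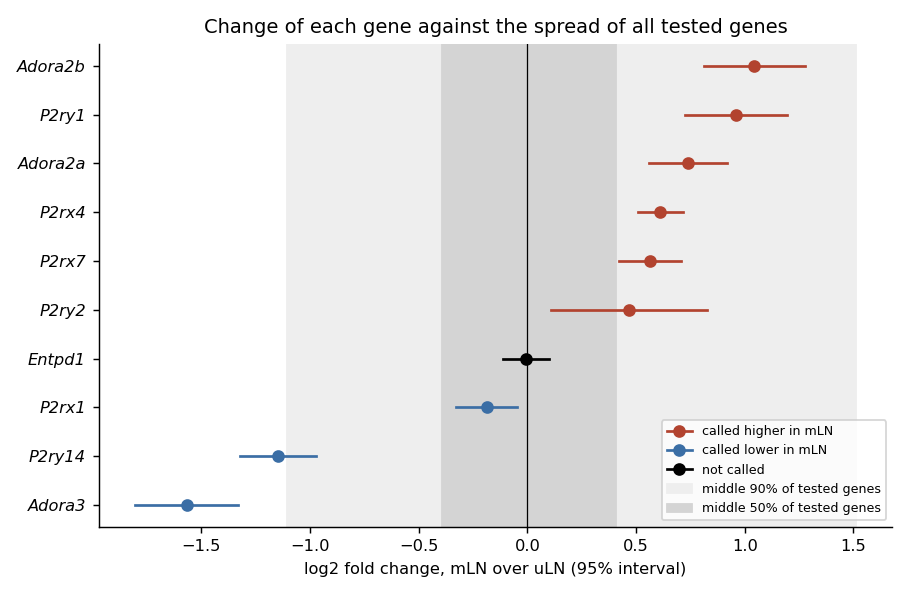
Log2 fold change of mLN over uLN (horizontal axis) with its 95% interval for each of the 10 genes (vertical axis, ordered by change). Grey bands give the spread of all 12706 tested genes, of which the 5th and 95th percentiles are -1.11 and 1.51. The points of Adora3 and P2ry14 lie below the outer band, and those of the 6 genes called higher lie inside it.

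Among mLN libraries, replicate 3 was the farthest from the uLN mean for 7 of the 10 genes and for 56.5% of all tested genes. Relative to the mean of mLN replicates 1 and 2, replicate 3 had 31.1% more P2ry1, 19.6% more Adora2a, 12.2% more Adora2b and 8.83% more P2rx4. Its difference was -28.0% for Adora3, -20.4% for P2ry14 and -14.5% for P2rx1. P2rx7 (-16.2%) and P2ry2 (-21.4%) ran the other way, nearer to uLN, and Entpd1 differed by -0.0212%. Within mLN the coefficient of variation of the 10 genes ran from 3.30% to 18.1%, and within uLN from 0.278% to 8.10%. Without mLN replicate 3, 6 genes were called higher and 3 lower, the same numbers as with it.

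Levels of different genes were compared per length as TPM, computed from the counts and the longest protein-coding transcript in GENCODE M21. P2rx4 led in both groups, at 1208 ± 48.5 TPM in mLN and 775 ± 9.05 TPM in uLN (SD, n = 3 each), and ranked 76 among 12338 tested genes with a length in mLN and 144 in uLN. P2rx7 came next, at 646 ± 71.8 TPM in mLN and 428 ± 4.43 TPM in uLN. In mLN these were followed by P2rx1 (135 TPM), P2ry14 (116), Adora2a (72.6), Adora3 (70.8), Entpd1 (55.8), P2ry1 (47.1), Adora2b (20.3) and P2ry2 (6.26). Library ranges of P2rx1 and P2ry14 overlapped in mLN, as did those of each neighbouring pair from Adora2a to P2ry1. In uLN the order after P2rx7 was P2ry14 (251 TPM), Adora3 (206), P2rx1 (150.2), Entpd1 (54.9), Adora2a (42.6), P2ry1 (23.7), Adora2b (9.62) and P2ry2 (4.43), with no overlap between neighbours. The median of tested genes was 25.5 TPM in mLN and 25.2 TPM in uLN, and 8 members were above it in mLN and 7 in uLN. The levels depend on the length used: with the mean over protein-coding transcripts, Adora2a came to 129 TPM in mLN and 75.6 TPM in uLN, P2rx7 to 975 TPM in mLN and 644 TPM in uLN, and Entpd1 to 84.2 TPM in mLN and 82.8 TPM in uLN.

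**Figure D3:**
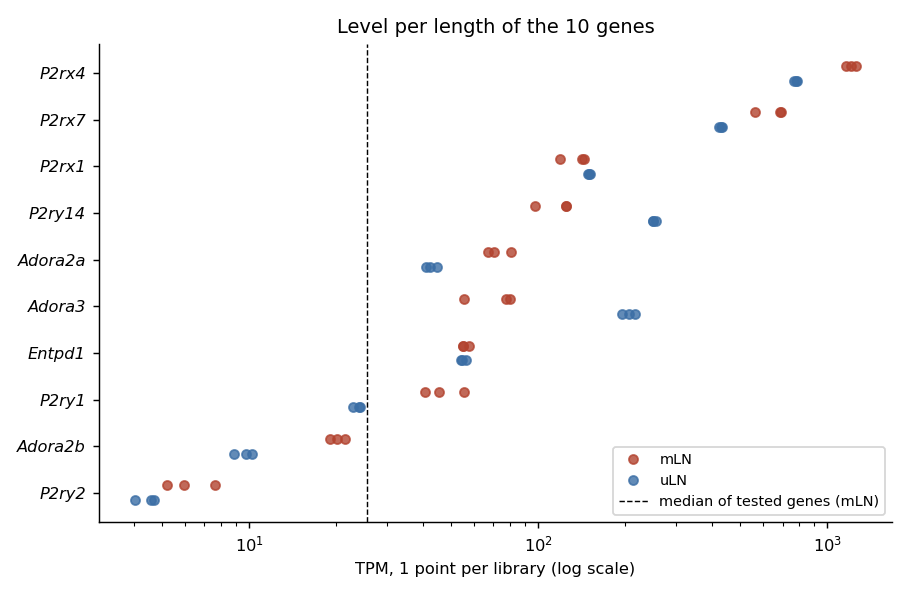
TPM (horizontal log axis) of the 10 genes (vertical axis, ordered by the mLN mean) in mLN (red) and uLN (blue), 1 point per library, with the median of tested genes in mLN as a dashed line. P2rx4 and P2rx7 lie above all other members in both groups, and Adora3 shows the widest gap between groups.

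The make-up of each receptor class differed between the groups as well. Among the 3 adenosine receptors Adora3 held 47.8%, 46.3% and 35.2% of the summed TPM in mLN replicates 1, 2 and 3, against 81.2%, 78.8% and 79.1% in uLN. Adora2a held 44.5 ± 5.85% in mLN and 16.5 ± 0.951% in uLN, and Adora2b 12.4 ± 1.17% in mLN and 3.74 ± 0.408% in uLN (SD, n = 3 each). Adora3 was thus the main adenosine receptor transcript in uLN, while in mLN the ranges of Adora2a and Adora3 overlapped. With the mean transcript length the mLN shares were 61.4% for Adora2a and 31.8% for Adora3, and the uLN shares 27.4% and 70.1%. Among the P2Y receptors P2ry14 held 68.2 ± 5.70% in mLN and 89.9 ± 0.339% in uLN, and P2ry1 28.1 ± 6.11% in mLN and 8.50 ± 0.330% in uLN (SD, n = 3 each). P2rx4 led the P2X class in both groups, at 60.8 ± 3.52% in mLN and 57.3 ± 0.262% in uLN, and P2rx1 at 6.76 ± 0.545% in mLN and 11.1 ± 0.136% in uLN (SD, n = 3 each). The summed TPM of the P2X channels was 1989 ± 48.5 in mLN and 1353 ± 12.3 in uLN, while that of the P2Y receptors was 169 ± 10.1 in mLN and 279 ± 2.61 in uLN, and that of the adenosine receptors 164 ± 5.59 in mLN and 258 ± 9.85 in uLN (SD, n = 3 each). These shares are descriptions and were not tested.

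**Figure D4:**
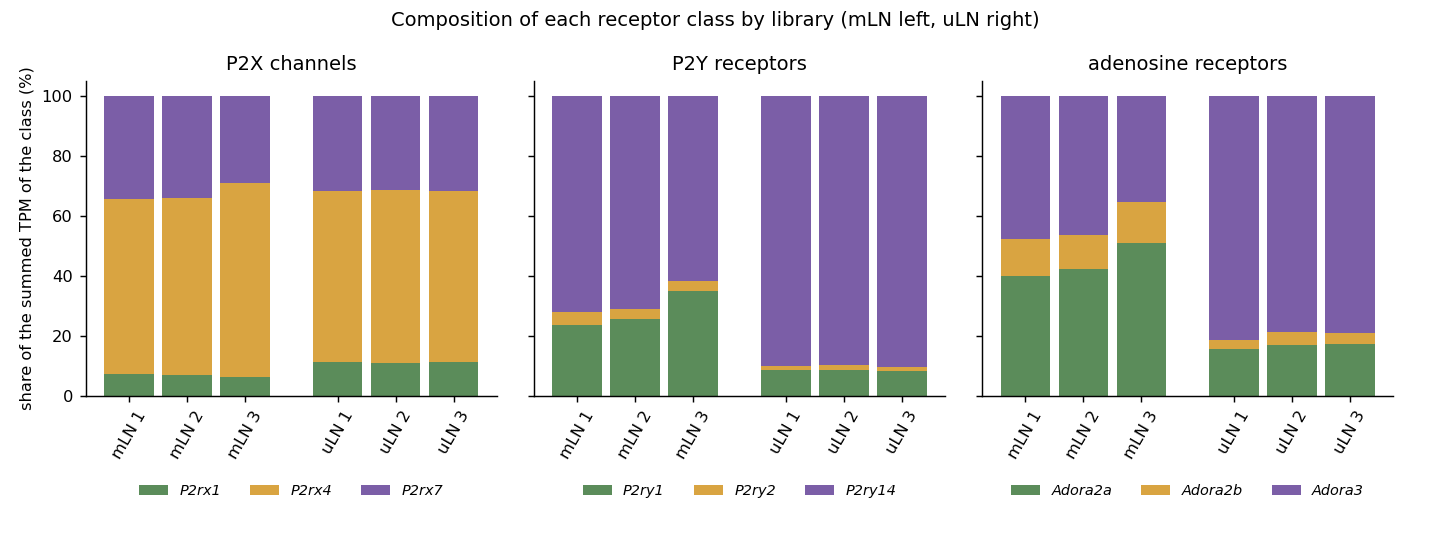
Share of the summed TPM of each receptor class (vertical axis, percent) held by its 3 members in each library, mLN on the left and uLN on the right of each panel. In mLN the Adora3 share is 35.2% to 47.8%, below the 78.8% to 81.2% of uLN, and the P2ry1 share is higher in mLN.

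The other receptors of these families were mostly scarce or not called. Of 10 found, 6 were tested, and 0 were called higher and 1 lower (median log2 fold change 0.01, against -0.01 for all tested genes). Of all tested genes, 67.4% were called. The 1 called was P2ry10, a receptor for lysophosphatidylserine rather than for nucleotides, which fell 1.38-fold to 31.0 ± 2.45 CPM in mLN, against 42.9 ± 4.49 CPM in uLN (SD, n = 3 each; edgeR adjusted p = 0.000699). Its relative P2ry10b had 17.5 ± 0.918 CPM in mLN and 17.7 ± 1.52 CPM in uLN (SD, n = 3 each) and was not called. P2rx5 and P2rx6 had mean levels near 1 CPM in both groups and were not called. The platelet ADP receptor P2ry12 had 2, 3 and 1 reads in mLN and 0 in each uLN library, and Adora1 had 11, 7 and 8 reads in mLN and 9, 5 and 3 in uLN. P2ry6, a UDP receptor, had 2, 3 and 3 reads in mLN and 7, 14 and 12 reads in uLN, so its groups were apart with mLN lower. P2ry13 had at most 1 read in any mLN library and at most 2 in any uLN library. These 4 genes were too scarce to be tested.

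Genes listed for nucleotide release, not all of them for ATP, moved in both directions, 3 of 11 tested higher and 5 lower (median log2 fold change -0.02). Of all tested genes, 33.2% were called higher and 34.2% lower. Slc17a9, the vesicular nucleotide transporter that loads ATP into secretory vesicles, had 629, 585 and 698 reads in mLN and 162, 171 and 138 in uLN. It rose 3.98-fold to 35.7 ± 3.92 CPM in mLN, against 8.96 ± 0.908 CPM in uLN (SD, n = 3 each; edgeR adjusted p = 1.02e-07). Panx2, a pannexin, rose 2.36-fold, while Abcc4, an exporter of cyclic nucleotides, fell 2.21-fold and the volume-regulated anion channel subunit Lrrc8a 1.59-fold (edgeR adjusted p = 5.05e-06, 2.27e-06 and 1.21e-05). Panx1, the ATP-releasing pannexin, was outside the rule for named genes and was added after its values were seen. It had 4.99 CPM in mLN and 6.53 CPM in uLN and was called lower (1.31-fold, edgeR adjusted p = 0.0310).

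Of the nucleotidases and related enzymes other than Entpd1, 7 of 9 tested were higher and 1 lower, with a median log2 fold change of 0.78. Not all of these act at the cell surface or on the same nucleotides. Of all tested genes, 33.2% were called higher and 34.2% lower, with a median of -0.01. With only genes averaging at least 1 CPM kept, 5 of this list were called higher. Entpd3, a cell-surface relative of Entpd1, rose 2.57-fold to 50.2 ± 1.64 CPM in mLN, against 19.6 ± 0.545 CPM in uLN (SD, n = 3 each; edgeR adjusted p = 3.65e-08). Entpd6 and Entpd4, which act largely inside the secretory pathway, rose 1.71-fold and 2.96-fold (edgeR adjusted p = 1.46e-05 and 0.000255). Entpd4 had 1178, 860 and 1231 reads in mLN and 245, 558 and 280 in uLN, an uneven spread, and its count is uncertain because reads may be split with its near-identical copy Entpd4b. Enpp4, a surface hydrolase of dinucleotides, rose 1.23-fold (edgeR adjusted p = 0.00272). Nt5e, the enzyme that makes adenosine from AMP, was below the level asked by the rule for named genes and was added after its values were seen. It had 26, 11 and 11 reads in mLN and 5, 6 and 7 in uLN, the highest in mLN replicate 1 where fibroblast markers peaked, and the part of fibroblast RNA in it was not tested. The other calls were Cd38 and Bst1, higher (log2 fold changes 0.66 and 2.77), which act on NAD, and Entpd7, lower (log2 fold change -0.32), which acts inside cells.

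Adenosine uptake and breakdown genes were called in 6 of 13 cases, 3 higher and 3 lower (median log2 fold change -0.18). Of all tested genes, 67.4% were called. Ada, which deaminates adenosine to inosine, rose 2.27-fold to 19.7 ± 0.981 CPM in mLN, against 8.67 ± 0.0838 CPM in uLN (SD, n = 3 each; edgeR adjusted p = 5.81e-07). The equilibrative nucleoside transporter Slc29a1 rose 1.49-fold, and Ampd3 and Nt5c2 fell by 0.59 and 0.34 on the log2 scale (edgeR adjusted p = 5.04e-06, 0.000117 and 6.04e-05).

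Downstream of the receptors, 8 of 22 tested genes for G proteins and cyclic AMP signalling were higher and 10 lower (median log2 fold change -0.10). Of all tested genes, 33.2% were called higher and 34.2% lower. The G proteins through which the receptors signal were outside the rule for named genes and were added after their values were seen. Gnas, the Gs subunit used by Adora2a and Adora2b, had 907 ± 66.7 CPM in mLN and 636 ± 3.34 CPM in uLN (SD, n = 3 each; log2 fold change 0.51, edgeR adjusted p = 1.20e-05). Of the Gi subunits, Gnai3 was called lower (log2 fold change -0.36) and Gnai2 was not called (-0.03, edgeR adjusted p = 0.505). Of the Gq family subunits, Gnaq and Gna11 were called higher (log2 fold changes 0.72 and 0.46) and Gna15 was called lower (-0.52, edgeR adjusted p = 0.000823). The regulatory subunits of protein kinase A, Prkar2b and Prkar1a, fell 1.45-fold and 1.38-fold. The phosphodiesterases Pde3b and Pde4d, which break down cyclic AMP, fell 1.49-fold and 1.41-fold (edgeR adjusted p for the 4 genes from 2.22e-06 to 1.12e-05). The phosphodiesterases outside the rule for named genes, added after their values were seen, did not all move this way. Pde4a was called lower (log2 fold change -0.16), Pde7a was called higher (0.39, edgeR adjusted p = 0.00442), and Pde4b and Pde8a were not called (1.11 and -0.37). The catalytic subunits of protein kinase A and the adenylyl cyclases were added in the same way. Prkacb was called lower and Prkaca higher (log2 fold changes -0.32 and 0.16). Of the cyclases, Adcy3 was called lower (-1.37), Adcy6 and Adcy7 higher (0.80 and 0.29), and Adcy9 was not called (0.20). Of the genes tied to P2X7 and the inflammasome 7 of 10 were higher and 2 lower (median log2 fold change 0.24). Again, 33.2% of all tested genes were higher and 34.2% lower, with a median of -0.01. Casp4, an inflammatory caspase, rose 2.37-fold, Il1b 2.19-fold and the pore-forming Gsdmd by 0.59 on the log2 scale, while the sensor Nlrp3 fell 1.64-fold to 63.9 ± 6.40 CPM in mLN, against 105 ± 10.5 CPM in uLN (SD, n = 3 each). The edgeR adjusted p of these 4 genes ran from 3.51e-06 to 3.53e-05. Casp1, another caspase of this list, was outside the rule for named genes and was added after its values were seen. It was the other of the 2 genes called lower (log2 fold change -0.44, edgeR adjusted p = 0.000869).

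**Figure D5:**
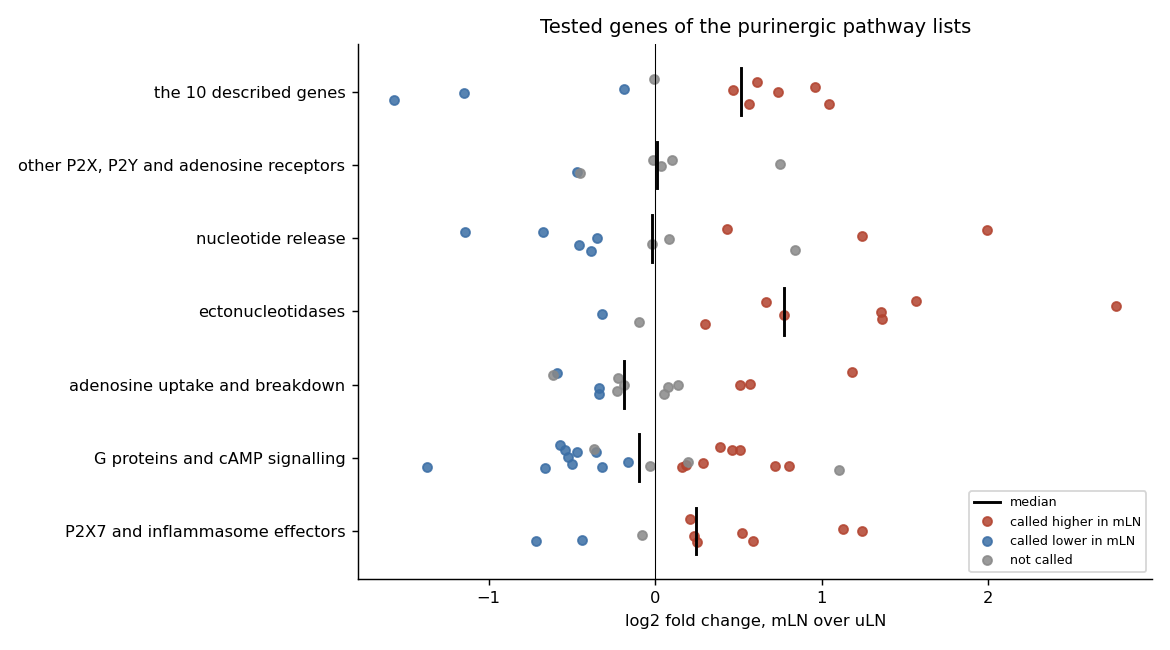
Log2 fold change of mLN over uLN (horizontal axis) for each tested gene of the 10 described genes and of the 6 related lists (vertical axis), with the median of each list as a bar. Colours give the call, and calls in both directions are seen in each list except that of the other receptors, where the 1 call is lower.

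The genes whose profile over the 6 libraries was most like that of P2rx4 were Tubb5, Canx and Arhgap27, by the root mean square difference of mean-centred log2 CPM (0.0216, 0.0225 and 0.0231) among the 9946 genes averaging 5 CPM or more. For Adora3 they were Arhgef11, Wdr13 and Ubtf (0.0296, 0.0416 and 0.0422). These genes had log2 fold changes of 0.59, 0.59 and 0.58 for P2rx4 and -1.61, -1.56 and -1.56 for Adora3.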

How the data were processed

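The values the authors deposited are expected counts for each gene and library, since 32.2% to 32.8% of the values of each library were fractional. They were rounded for the tests. The submitters' processing notes name TopHat, cutadapt and FastQC and the build GRCm38. The counting tool and its use of strand are not given in those notes or in the labels. Of 17891 rows, 1 names no gene and was left out. The members and lists were chosen with earlier results of these data known. Genes of the related lists were named by rule, up to 4 per list with a mean of at least 1 CPM in the order of adjusted p. The test was edgeR 4.0.16 in R 4.3.3 (TMM, default expression filter, quasi-likelihood, Benjamini-Hochberg), which kept 12706 genes. It was also run on simulated data with levels and spreads taken from these libraries, and that outcome is not given here. Standard errors are the log2 fold change over the square root of F. TPM used GENCODE M21 lengths for 17510 genes. The mean chi-square per gene between libraries was at least 2.06, where counting error gives about 1, and no library was merged with another. Alternatives were other scaling, DESeq2 1.42.0, other filters, unrounded values, the replicate number as a block, leaving out each library and a larger preset spread. At these depths counting error is 0.679% to 10.6% for these genes. Counting errors and floors cover counting only, as no molecular identifiers are known.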

Additional observations from a re-analysis of the deposited data

How the results depend on the processing

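Of the 10 genes, P2rx4, P2ry1, P2ry14, Adora2a, Adora2b and Adora3 kept their call and direction, and Entpd1 stayed uncalled, under all 14 alternatives. The log2 fold change of Adora3 ran from -1.65 to -1.42 and that of P2rx4 from 0.57 to 0.65. P2rx1 and P2ry2 lost their calls without single libraries, as given with their values. Leaving out 1 library each gave 5 to 6 members called higher and 2 to 3 lower, and 3843 to 4403 of all genes higher and 4017 to 4492 lower. With a biological coefficient of variation of 0.2 set for every gene, an alternative chosen after the data were seen, P2rx1, P2rx7 and P2ry2 were not called (adjusted p = 0.591, 0.0525 and 0.170), which left 4 members higher and 2 lower, and 2145 of all genes were higher and 1913 lower. In that setting the lists gave 1 higher and 1 lower for adenosine uptake and breakdown, 3 and 3 for G proteins and cyclic AMP, 3 and 1 for P2X7 and the inflammasome, 2 lower for nucleotide release, 0 lower for ectonucleotidases and 0 lower for the other receptors. Adenosine uptake and breakdown had 5 called higher with library totals alone and 5 lower with no expression filter. The other receptors had 2 called lower with no filter, and 1 to 2 when single libraries were left out. The cause of these shifts was not tested. Deviations of same-numbered libraries correlated at 0.0248, -0.155 and -0.0133, and those of differently numbered libraries at -0.160 to 0.185. No pairing by replicate number was seen, but such correlations cannot exclude that same-numbered libraries share an origin. With the replicate block 6 members were higher and 3 lower, and 4122 and 4263 of all genes. With the mean transcript length the mLN and uLN shares were 5.31% and 8.80% for P2rx1, 55.6% and 52.8% for P2rx4, 39.1% and 38.4% for P2rx7, 20.7% and 5.76% for P2ry1, 76.2% and 93.0% for P2ry14, 61.4% and 27.4% for Adora2a, 6.88% and 2.49% for Adora2b and 31.8% and 70.1% for Adora3, and 1.26% for P2ry2 in uLN. Depth limits the scarce genes, such as Bst1 with 4, 2 and 1 reads in uLN.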
